A study of Mus musculus with 13 samples.

Results

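The 41 genes described here encode proteins of the adult skeletal muscle sarcomere. They were taken by symbol from a fixed list, and all 41 were found once among the 14911 genes of the deposited table. By textbook fibre type, 15 were grouped as fast, 7 as slow and 19 as shared structural genes. Messenger RNA came from the entire hamstring of C57BL/6 females, whose age is not given in the sources used here. Every mouse received cardiotoxin, a snake toxin that kills fibres, into the hamstring at 0.32 mg/kg, and tissue was taken at day 4. The 4 saline mice were given saline intraperitoneally once a day. The 9 dexamethasone mice were given dexamethasone, a synthetic glucocorticoid, at 10 mg/kg by the same route. Per the series' design text, bone had formed in the injured muscle of every dexamethasone mouse, and 1 saline mouse with bone was left out, so drug and bone formation cannot be told apart.

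Skeletal muscle fibres contract when myosin heads of the thick filament pull on actin of the thin filament, within a unit bounded by Z-discs. Many of these proteins exist as a fast and a slow version, made by separate genes and used in fibres that contract quickly or slowly. After cardiotoxin, damaged fibres die and are cleared, and satellite cells fuse into new fibres that first use developmental versions. A whole muscle at this stage therefore holds surviving fibres, young fibres, and the cells that clear and rebuild the tissue. In such bulk samples, fewer fibres and less RNA per fibre cannot be told apart.

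Libraries held 25531487 to 34942266 recovered reads. Levels are log2 CPM, that is, reads per 1e6 scaled reads on a log2 scale, and a change is the difference of group means on that scale. A gene was called where its Benjamini-Hochberg adjusted p from limma was under 0.05, which held for 48.1% of all 14911 genes, 25.2% as higher and 22.9% as lower. Marker lists for other cells were read beside the sarcomere genes. Lymphocyte markers were lower for 10 of 10, with a summed level of 38.6 to 55.2 CPM in saline and 4.96 to 14.6 CPM in dexamethasone libraries. Summed macrophage markers ran from 2028 to 2967 CPM in saline and from 2287 to 3047 CPM in dexamethasone libraries (3 of 10 higher, 1 lower). Neutrophil markers ran from 30.4 to 243 CPM and from 31.1 to 53.2 CPM (1 of 7 higher, 2 lower). Among the rest, fibroblast markers had 0 of 8 higher and 2 lower, satellite cell and myoblast markers 1 of 7 higher and 1 lower, and endothelial markers 0 of 6 called, 1 of them higher at an unadjusted p under 0.05 and 0 called with voom. No marker was at 0 reads in any library. The part of these other cells in the sarcomere results was not tested.

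Adult sarcomere transcripts were called lower under dexamethasone for some proteins and not called for others. The change was negative for 37 of the 41 genes, called or not, beside 7331 of all 14911 genes. Of the 41 genes, 17 fell and 0 rose, beside 22.9% of all genes lower, and the median change was -0.38 against 0.0071 over all genes. At an unadjusted p under 0.05, 23 were lower and 0 higher, beside 3879 lower and 4259 higher of all 14911 genes. With voom on recovered reads 20 were lower and 0 higher, beside 3453 lower and 3614 higher of all genes. By the p-values in the authors' deposited table, 20 were lower and none higher, the 3 more being Myh4, Tnnt3 and Acta1. In 12 of the 41 every dexamethasone library lay below every saline library, beside 12.9% of all genes. Fast genes had 8 of 15 lower (median -0.39), slow genes 2 of 7 (median -0.50) and shared genes 7 of 19 (median -0.19). Without saline library 1 the fast count was 5, and without saline library 2 or dexamethasone library 9 the slow count was 4. When library values were taken per summed read without further scaling, the median of all genes moved by 0.12 upwards. In that setting 19 members were lower and 1, Mylk2, was higher, beside 2001 lower and 5256 higher of all 14911 genes. Under quantile normalisation the median of the 41 was -0.14 (all genes -0.012). There 16 were lower and 2, Actn3 and Myh1, were higher, beside 3736 lower and 3493 higher of all 14911 genes. In that setting the change was smaller by over 1.5 times for 10 of the 17 genes that fell (Myl1, Mylpf, Tnni2, Tnnc2, Tpm1, Tpm2, Mybpc1, Mybpc2, Myom2 and Ldb3), and within 1.5 times for Myoz3, Tnnt1, Actn2, Lmod2, Lmod3, Tmod4 and Smpx.

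**Figure D1:**
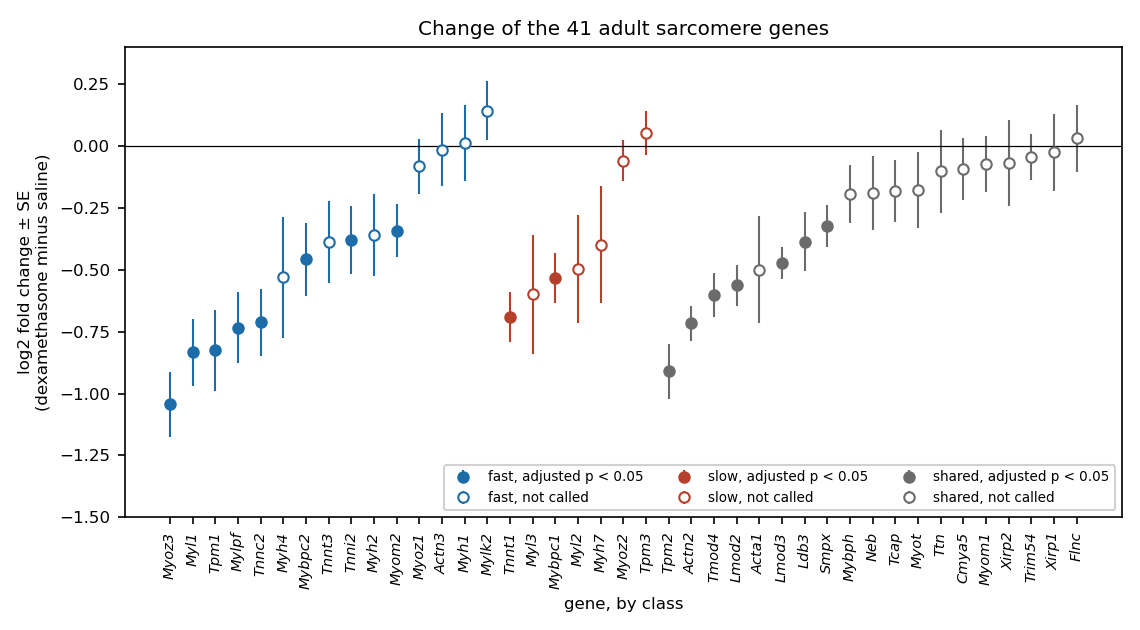
Log2 fold change (dexamethasone minus saline) with its standard error for the 41 genes, ordered within the fast, slow and shared classes; filled points passed an adjusted p of 0.05 in limma. All 17 filled points lie below 0, between -1.04 and -0.32, and open points reach 0.14.

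As a share of all reads, the 41 genes together took 21.1%, 18.6%, 17.0% and 16.3% in saline libraries 1, 2, 3 and 5. In dexamethasone libraries their share ran from 11.9% in library 2 to 15.8% in library 7, with a median of 14.3%. The groups did not overlap. Fast genes held 9.89% to 12.9% of reads in saline and 6.61% to 9.33% in dexamethasone libraries. Slow genes held 0.359% ± 0.044 and 0.279% ± 0.021, and shared genes 6.91% ± 0.73 and 5.66% ± 0.40 (SD, n = 4 and 9). Acta1 and Myh4 supplied 36.2% to 40.1% of the reads of the 41 genes in every library. Divided by exonic length, the level of Acta1 was the highest in saline, at 23040.4 CPM per kb, followed by Mylpf (9316), Tnnt3 (8503), Tnnc2 (8149.8) and Myh4 (6587). Lowest on that scale were Tpm3 (37.5 CPM per kb), Myoz2 (38.4) and Xirp1 (40.2).

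None of the 4 adult myosin heavy chain genes, the motors of the thick filament, was called by its level, and their proportions differed between groups. Myh2, Myh1 and Myh4 lie side by side on chromosome 11 (mm10, 67171027 to 67197517, 67200052 to 67224575 and 67238029 to 67260446), and their messages are so alike that reads may be split uncertainly between them. Myh4, the fastest type (IIb), was at 15.73, 15.27, 15.02 and 14.94 log2 CPM in saline libraries 1, 2, 3 and 5. In dexamethasone libraries it ran from 14.20 in library 2 to 14.96 in library 1, with a median of 14.72. Only dexamethasone library 1 reached the saline range. The change was -0.53 ± 0.24 (SE; adjusted p 0.0837, limma), with an adjusted p of 0.00892 by voom on recovered reads and one of 0.00844 in the authors' deposited table. The adjusted p for Myh4 ran from 0.00892 to 0.925 over all alternatives, the upper end coming from quantile normalisation, where its change was -0.015. That setting gives the highest genes nearly the same value in every library by construction, so it cannot test this change.

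Myh1 encodes the intermediate fast type (IIx). It was at 12.36, 12.04, 12.01 and 11.54 log2 CPM in saline, and between 11.62 and 12.36 in dexamethasone libraries (median 11.99). The groups overlapped fully, with a change of 0.010 ± 0.15 (SE; adjusted p 0.962, limma). Myh2, of oxidative fast fibres (IIa), had a change of -0.36 ± 0.17 (SE; adjusted p 0.0837, limma). Without saline library 5 its adjusted p was 0.0302 and without dexamethasone library 1 it was 0.0306 (limma).

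Within the reads of these 3 genes and Myh7, the slow heavy chain, Myh1 made up 8.52%, 9.27%, 10.4% and 8.31% in saline libraries 1, 2, 3 and 5. Under dexamethasone its share ran from 11.2% to 14.4%, with a median of 12.6%. All 9 dexamethasone libraries lay above every saline library, and the difference was 3.56 percentage points (exact permutation p 0.0028, the smallest that splitting 13 libraries allows; adjusted over the 4 shares 0.0112). Myh4 went from 86.6% ± 1.71 to 82.7% ± 1.52 (SD over 4 and 9 libraries; adjusted p 0.0224, exact permutation). Its share was below every saline library in 6 of 9 dexamethasone libraries. Without saline library 1, 2 or 5 the adjusted p for Myh4 was 0.0727, with differences of -3.53, -3.69 and -3.53 points. Shares of Myh2 (3.08% ± 0.43 and 3.34% ± 0.55) and Myh7 (1.21% ± 0.46 and 1.27% ± 0.40) were not called (SD over 4 and 9 libraries; adjusted p 0.597 and 0.822, exact permutation).

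**Figure D2:**
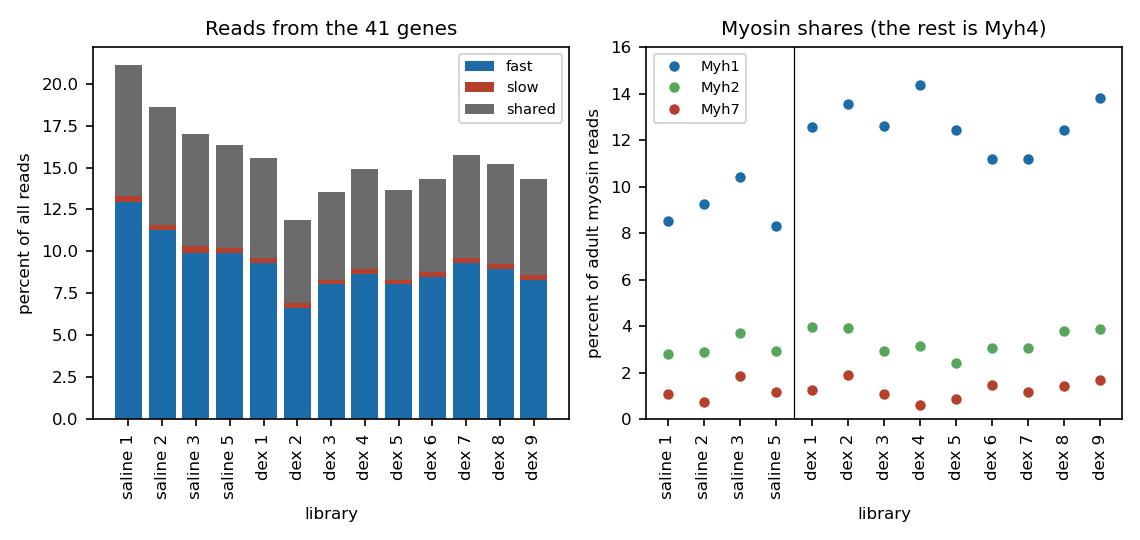
Left, percent of all reads from the fast, slow and shared sarcomere genes in each library, stacked from 0; right, percent of adult myosin heavy chain reads from Myh1, Myh2 and Myh7 in each library, Myh4 being the remainder. Myh1 sits at 8.31% to 10.4% in saline and 11.2% to 14.4% in dexamethasone libraries, whereas Myh2 and Myh7 overlap between groups.

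Myosin light chains, the small subunits that wrap the lever arm of each heavy chain, fell in the fast version. Myl1, the fast essential light chain, was at 13.29, 13.16, 12.95 and 12.98 log2 CPM in saline libraries 1, 2, 3 and 5. Dexamethasone libraries ran from 11.89 to 12.54 (median 12.27), all below the lowest saline library. The level was 1.78-fold lower (adjusted p 0.000135, limma), a change of -0.83 that was -0.35 under quantile normalisation. Mylpf, the fast regulatory light chain, was at 13.49, 13.35, 13.08 and 13.14 in saline and 12.10 to 12.78 (median 12.57) under dexamethasone, with no overlap and 1.66-fold lower (adjusted p 0.000626, limma), a change of -0.73 that was -0.26 under quantile normalisation. The kinase that phosphorylates it, Mylk2, had a change of 0.14 ± 0.12 (SE; adjusted p 0.346, limma), and of 0.26 per summed read without further scaling (adjusted p 0.0314, limma).

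None of the 3 slow myosin genes was called, and each varied widely between mice. Myh7 was at 9.39, 8.40, 9.51 and 8.73 log2 CPM in saline libraries 1, 2, 3 and 5, and from 7.75 to 9.05 (median 8.79) in dexamethasone libraries. Myl2, the slow regulatory light chain, was between 6.54 in library 2 and 7.72 in library 3, and from 6.12 to 7.14 (median 6.84). Myl3, the slow essential light chain, was at 7.48, 6.54, 7.68 and 7.11, and from 5.74 to 7.06 (median 6.70). The 3 genes ordered the saline mice alike, with library 3 highest and library 2 lowest, and each was lowest under dexamethasone in library 4, then in library 5. Their changes were -0.40, -0.50 and -0.60, with adjusted p of 0.177, 0.0701 and 0.0508 (limma). Leaving out saline library 2 gave -0.71 for Myl2 (adjusted p 0.0147, limma) and -0.82 for Myl3 (adjusted p 0.0144, limma). Myl3 passed in 10 of the alternatives tried and Myl2 in 4.

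Troponin switches the thin filament on when calcium arrives, through a calcium-binding, an inhibitory and a tropomyosin-binding subunit. Tnnc2, the fast calcium-binding subunit, was at 12.90, 12.73, 12.45 and 12.56 log2 CPM in saline, and from 11.56 to 12.21 (median 11.96) under dexamethasone. No dexamethasone library reached the saline range, and the level was 1.64-fold lower (adjusted p 0.000489, limma), a change of -0.71 that was -0.36 under quantile normalisation. Tnni2, the fast inhibitory subunit, was at 12.67, 12.43, 12.14 and 12.28 against 11.61 to 12.26 (median 12.05). It fell by 0.38 on the log2 scale (adjusted p 0.0298, limma), but did not pass when saline library 1 (limma adjusted p 0.107) or 2 (0.0731) was left out, or under quantile normalisation (-0.062, 0.511). Tnnt3, the fast tropomyosin-binding subunit, had a change of -0.39 ± 0.16 (SE; adjusted p 0.0626, limma) and passed with voom (adjusted p 0.0163). Its slow counterpart Tnnt1 was at 9.00, 8.88, 9.30 and 9.27 in saline libraries 1, 2, 3 and 5. Dexamethasone libraries held it at 8.05 to 8.62 (median 8.48), all below every saline library, and it was 1.61-fold lower (adjusted p 5.22e-05, limma).

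Tropomyosins, the coiled rods that lie along actin and block myosin at rest, gave the largest fall among shared genes. Tpm2 was at 13.10, 13.02, 12.95 and 12.93 log2 CPM in saline and from 11.78 to 12.23 (median 12.16) under dexamethasone. The saline libraries lay close together and apart from the others, and the level was 1.88-fold lower under dexamethasone (adjusted p 1.08e-05, limma), a change of -0.91 that was -0.45 under quantile normalisation. Tpm1, counted here as fast, was at 13.84, 13.63, 13.30 and 13.32 against 12.26 to 13.02 (median 12.69), again with no overlap and 1.77-fold lower (adjusted p 0.000692, limma), a change of -0.83 that was -0.55 under quantile normalisation. Tpm3, the slow form, was at 7.77, 7.53, 8.08 and 7.91 against 7.67 to 8.01 (median 7.97), with a change of 0.054 ± 0.089 (SE; adjusted p 0.646, limma). Tpm1, Tpm2 and Tpm3 also give smooth muscle or non-muscle versions, which counts per gene do not separate. Of 12 smooth muscle and pericyte markers 1 rose and 2 fell, beside 25.2% higher and 22.9% lower of all genes. Tagln, a smooth muscle actin-binding protein, rose 1.63-fold, while Smtn was 1.39-fold and Synpo2 1.33-fold lower. Their part in the tropomyosin values was not tested.

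**Figure D3:**
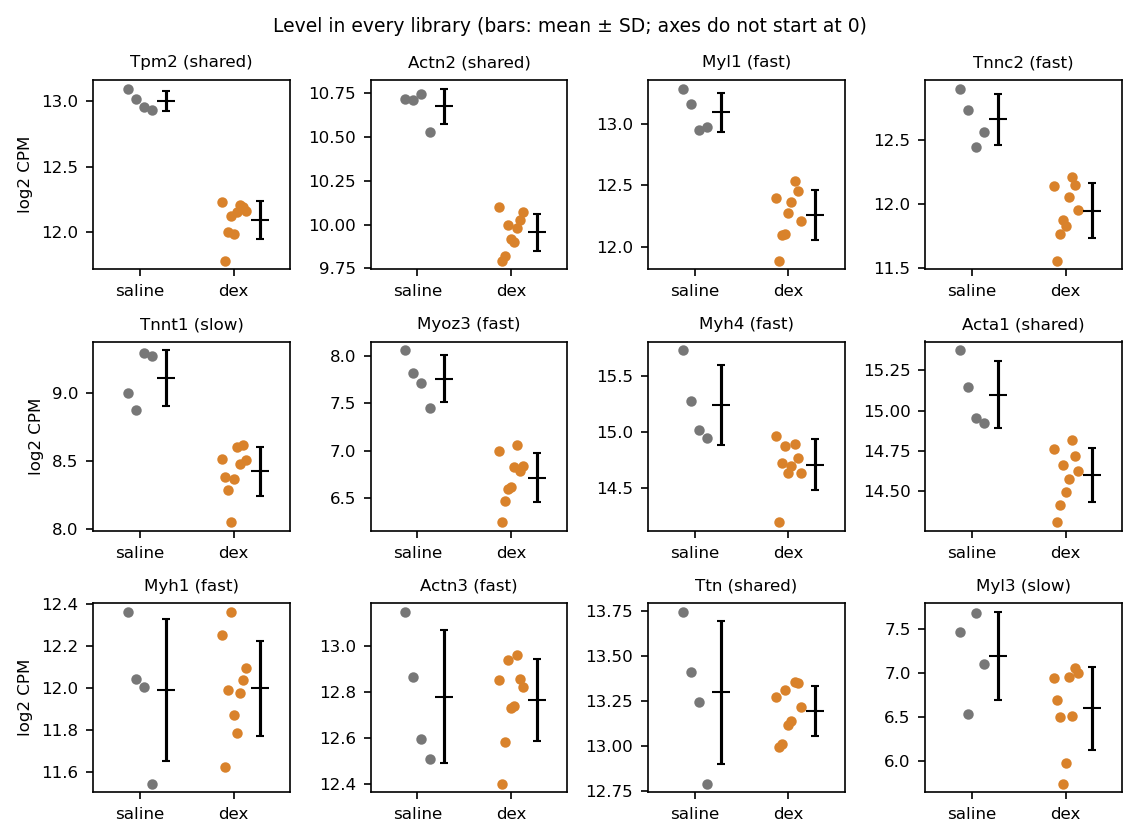
Log2 CPM of 12 sarcomere genes in every library of the saline and dexamethasone (dex) groups, with mean and SD; the axes differ and do not start at 0. Groups are separate for Tpm2, Actn2, Myl1, Tnnc2, Tnnt1, Myoz3 and Acta1, touch for Myh4, and overlap for Myh1, Actn3, Ttn and Myl3.

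On the thin filament, Acta1, the skeletal actin, was at 15.37, 15.15, 14.95 and 14.92 log2 CPM in saline and from 14.31 to 14.82 (median 14.63) in dexamethasone libraries. The groups did not overlap, yet the change of -0.50 ± 0.22 (SE) had an adjusted p of 0.0672 (limma). By voom the adjusted p was 0.00227, it was 0.00223 in the authors' deposited table, and it ran from 0.00227 to 0.923 over all alternatives. The upper end came from quantile normalisation, where the change of Acta1 was 0.015, again a value nearly fixed by construction for so high a gene. Lmod2 and Lmod3, leiomodins that help filaments form at their pointed ends, were 1.48-fold and 1.39-fold lower (adjusted p 6.25e-05 and 3.26e-05, limma). Tmod4, a tropomodulin that caps those ends, was 1.52-fold lower (adjusted p 5.69e-05, limma). Each of these 3 was below every saline library in all 9 dexamethasone libraries. Neb, the nebulin ruler along actin, was at 12.86, 12.48, 12.37 and 11.90 in saline and from 11.97 to 12.39 (median 12.25) under dexamethasone, with a change of -0.19 ± 0.15 (SE; adjusted p 0.309, limma). Without saline library 5 that change was -0.36 (adjusted p 0.0369, limma).

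At the Z-disc, alpha-actinins cross-link actin filaments, and the 2 genes went apart. Actn2, the form found in all fibres, was at 10.72, 10.71, 10.74 and 10.53 log2 CPM in saline libraries 1, 2, 3 and 5. Dexamethasone libraries ran from 9.79 to 10.10 (median 9.98), well below the saline range, for a 1.64-fold lower level (adjusted p 2.02e-06, limma). Actn3, the form of fast fibres, was at 13.15, 12.86, 12.60 and 12.51 against 12.40 to 12.96 (median 12.82). The groups overlapped, with a change of -0.014 ± 0.15 (SE; adjusted p 0.945, limma), and quantile normalisation turned this to a rise of 0.38 (adjusted p 0.00143, limma).

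Other Z-disc genes were divided in the same way. Myoz3, of the calsarcins that tie alpha-actinin to calcineurin, had the largest change of the 41. It was at 8.06, 7.81, 7.71 and 7.45 log2 CPM in saline and from 6.25 to 7.05 (median 6.78) under dexamethasone, with no overlap and 2.06-fold lower (adjusted p 1.42e-05, limma). Its relatives Myoz1 of fast fibres and Myoz2 of slow fibres had changes of -0.081 ± 0.11 and -0.059 ± 0.082 (SE; adjusted p 0.570 and 0.579, limma). Ldb3, which binds alpha-actinin, fell by 0.39 and Smpx, a small stretch-responsive protein, fell by 0.32 on the log2 scale (adjusted p 0.0140 and 0.00524, limma). Ldb3 no longer passed once saline library 1 was left out (-0.26, limma adjusted p 0.0680), and its change was -0.21 under quantile normalisation. Myot, Tcap, Flnc, Xirp1, Xirp2 and Cmya5, of the Z-disc and its repair or anchoring, had changes from -0.18 to 0.030, and the E3 ligase gene Trim54 one of -0.046, with adjusted p of at least 0.250 (limma). On the 8 libraries whose mouse numbers occur in both groups, Myot was at -0.37 (limma adjusted p 0.0220 with the number as a replicate block, 0.0375 without) and Tcap at -0.36 (0.0200 with the block). Flnc and Xirp1 were highest in dexamethasone libraries 3 and 4, at 10.57 and 10.62 log2 CPM for Flnc and 8.29 and 8.28 for Xirp1, and Myot was highest in library 4 at 9.90.

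Among thick filament and M-band partners, the myosin-binding proteins C fell in both versions. Mybpc1, the slow form, was at 11.12, 11.02, 11.01 and 10.73 log2 CPM in saline and from 10.19 to 10.74 (median 10.42) under dexamethasone, where only library 4 reached the saline range. It was 1.45-fold lower (adjusted p 0.000474, limma), a change of -0.53 that was -0.33 under quantile normalisation. Mybpc2, the fast form, fell by 0.46 on the log2 scale (adjusted p 0.0174, limma), but did not pass when saline library 1 (limma adjusted p 0.0785) or 2 (0.0609) was left out, or under quantile normalisation (-0.12, 0.310). Myom2, an M-band protein of fast fibres, was 1.27-fold lower (adjusted p 0.0140, limma), and at 0.0630 without saline library 1; its change of -0.34 was -0.18 under quantile normalisation. Myom1, the general myomesin, and Mybph, a shorter relative of the C proteins, had changes of -0.072 ± 0.11 and -0.19 ± 0.12 (SE; adjusted p 0.629 and 0.187, limma). Ttn, the titin spring that spans from Z-disc to M-band, was at 13.75, 13.41, 13.24 and 12.79 in saline, and from 12.99 to 13.36 (median 13.21) under dexamethasone. Its dexamethasone libraries fell inside the saline range, with a change of -0.10 ± 0.17 (SE; adjusted p 0.647, limma).

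Exonic length moved with these changes. Of 25 members with under 4000 exonic bases 13 were lower (median change -0.47), and of 16 with at least 4000 bases 4 were (median -0.15). Over all genes the shorter class had 28.4% lower (median -0.059) and the longer class 18.3% (median 0.053). Spearman's rho between length and change was 0.33 across the 41 members and 0.18 across 14893 genes with a length, given as a description of genes, which are not independent replicates. The part of length, or of RNA quality, in the results was not tested.

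Counterparts were compared within each library as a log2 ratio, which cancels the scaling of the library. Of the 10 pairs, 9 set a fast gene against its slow version, and 1 sets Actn3 of fast fibres against Actn2 of all fibres. The ratio of Actn3 to Actn2 was 2.43, 2.15, 1.85 and 1.98 in saline libraries 1, 2, 3 and 5, and 2.61 to 2.98 (median 2.81) under dexamethasone. All 9 dexamethasone libraries were above every saline library, by 0.70 on average (exact permutation p 0.0028; adjusted over the 10 pairs 0.0280). The ratio of Tpm1 to Tpm3 was 6.07, 6.10, 5.22 and 5.42 in saline, and 4.25 to 5.27 (median 4.83) under dexamethasone. It was lower by a mean difference of -0.88, with 8 of 9 dexamethasone libraries below every saline library (exact permutation p 0.0056, adjusted 0.0280). In the first pair the level of the shared gene Actn2 fell and that of Actn3 was not called, and in the other the level of Tpm1 fell and that of Tpm3 was not called. Without saline library 1, 2 or 5 both had an adjusted p of 0.0909 (exact permutation), with differences of 0.66 to 0.81 for Actn3 to Actn2 and -0.97 to -0.75 for Tpm1 to Tpm3. For Actn3 to Actn2 every dexamethasone library stayed above the saline libraries left in. Its unadjusted p was thus at the smallest possible value there (0.0091, exact permutation).

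The other 8 pairs did not pass (exact permutation, adjusted p from 0.242 to 0.876). Tnnc2 to Tnnc1 differed by -0.50 (4.83 ± 0.54 to 4.33 ± 0.24) and Tnnt3 to Tnnt1 by 0.30 (4.59 ± 0.40 to 4.89 ± 0.22; SD, n = 4 and 9). Myh4 to Myh7, Mylpf to Myl2 and Myl1 to Myl3 differed by -0.13, -0.24 and -0.23, beside saline SDs of 0.56, 0.60 and 0.56. Tnni2 to Tnni1, Mybpc2 to Mybpc1 and Myoz1 to Myoz2 differed by 0.055, 0.076 and -0.022. Of the 2 slow partners outside the 41 genes, Tnni1 was 1.35-fold lower (adjusted p 0.00171, limma) and Tnnc1 had a change of -0.21 ± 0.13 (SE; adjusted p 0.205, limma).

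**Figure D4:**
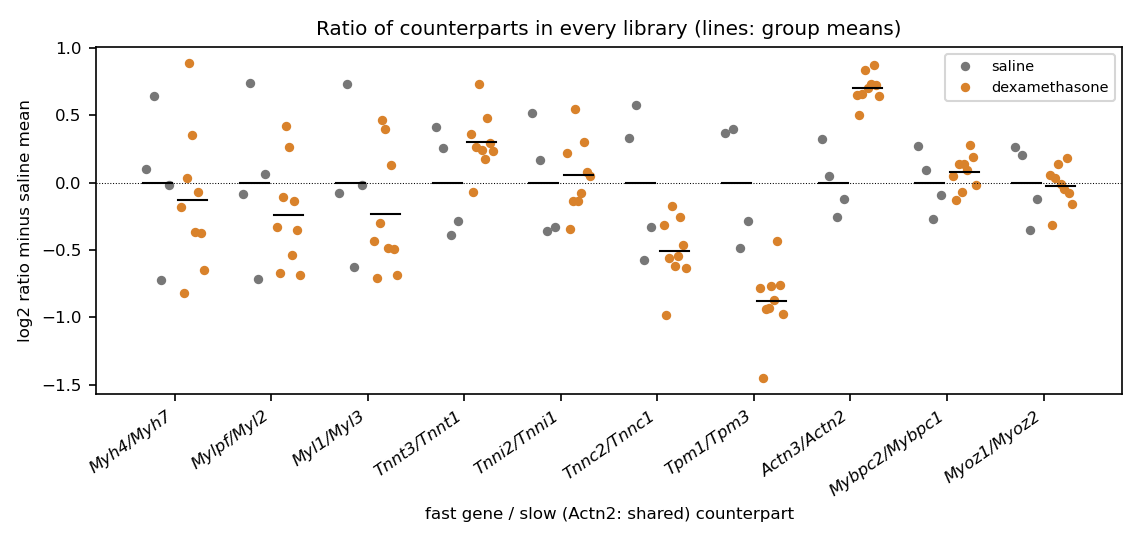
Log2 ratio of each fast gene to its counterpart in every library, less the saline mean of that pair, with lines at group means. Actn3/Actn2 lies 0.70 above and Tpm1/Tpm3 0.88 below the saline mean, while both groups overlap in the 3 myosin pairs. Actn2 is a shared gene.

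Single libraries ran high or low across many of the 41 genes. Saline library 1 was the highest saline library for 34, among them all 15 fast genes, and saline library 3 for 7, among them 6 of the 7 slow genes. The lowest saline library was number 5 for 27 and number 2 for 6 slow genes. Of the dexamethasone libraries, number 2 was lowest for 32, 14 of them fast. Highest among these was library 7 for 17 genes and library 4 for 12.

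**Figure D5:**
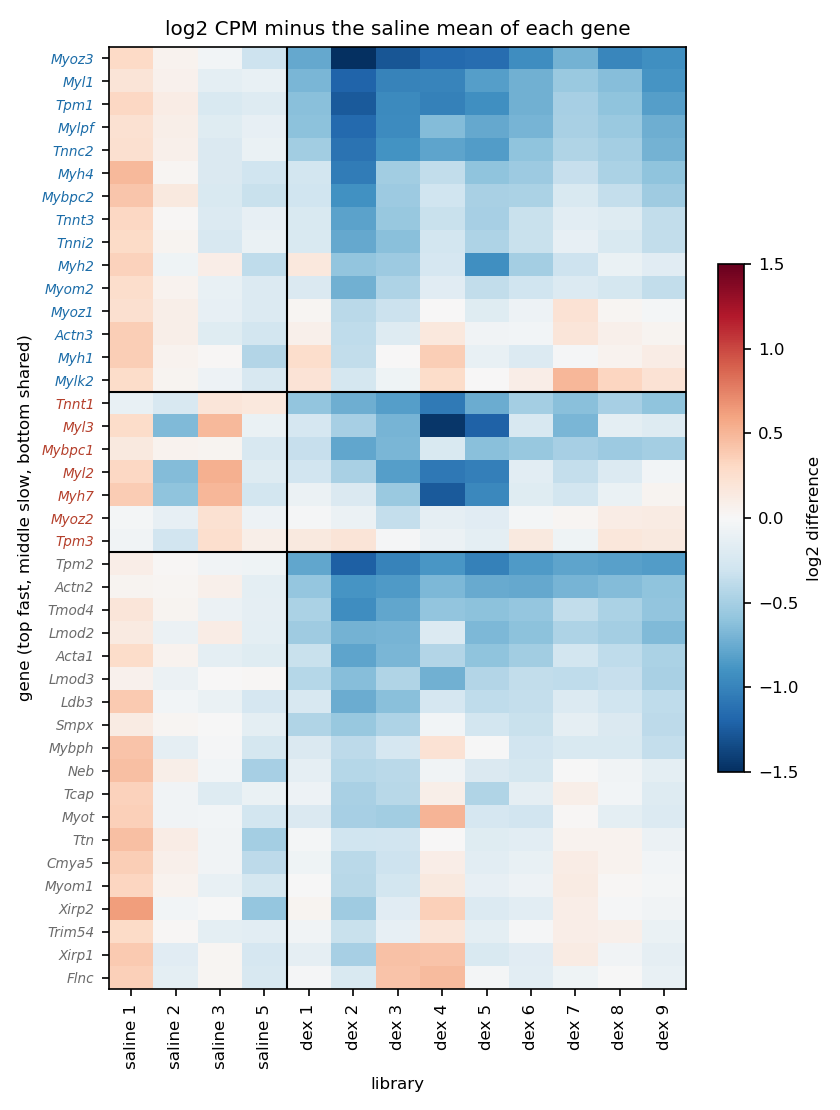
Log2 CPM of the 41 genes (rows, by class) in the 13 libraries (columns), less the saline mean of each gene, on a colour scale from -1.5 to 1.5. Saline library 1 is the highest saline library in 34 rows, dexamethasone library 2 the lowest of its group in 32, and the slow myosin rows follow a library order of their own.

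Lists of related genes were read against the 22.9% lower and 25.2% higher of all genes. Of 26 other sarcomere genes 13 fell and 2 rose (median -0.26). Actc1, the cardiac actin of developing muscle, was 5.52-fold lower, Myom3, a myomesin, 1.65-fold and Myl6b, a light chain, 1.64-fold. The 2 that rose, Ankrd2 (1.51-fold) and Pdlim5 (1.23-fold), were named after their values were seen. Of 17 genes of sarcomere assembly and turnover 11 fell and 1 rose. Hspb8, a small heat shock protein, was 1.39-fold lower, Klhl41, a thin filament stabiliser, 1.28-fold and Trim55, an M-band ligase, 1.32-fold. Fbxo32, the atrophy ligase atrogin-1, was the 1 that rose, by 1.57-fold (adjusted p 0.0452, limma), and was named after its value was seen.

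Of 24 regulators of fibre type 10 fell and 3 rose. Ppargc1a, the coactivator of oxidative fibres, was 2.01-fold lower and Mafa, a large Maf factor of fast fibres, 1.91-fold lower, whereas Vgll3, a TEAD cofactor, rose 2.16-fold. Rcan1, a calcineurin inhibitor named after its value was seen, rose 1.24-fold. Of 12 fast fibre genes outside the sarcomere 8 fell and 0 rose, with 9 lower and 0 higher at an unadjusted p under 0.05 and the same numbers with voom. Casq1, the calcium store protein of fast fibres, was 1.95-fold lower, Eno3, muscle enolase, 1.90-fold and Pvalb, the calcium buffer of fast fibres, 1.76-fold. Of 12 slow fibre genes outside the sarcomere 7 fell and 2 rose. Casq2 and Cox7a1, a calcium store protein and a respiratory subunit, were 1.75-fold and 1.85-fold lower. Cd36, a fatty acid transporter that endothelial and fat cells also use, rose 1.94-fold. Lpl, a lipase of fibres and fat cells named after its value was seen, rose 1.26-fold.

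Promoter sequences are shown for 2 genes whose groups were separate, Mylpf and Actn2, and 2 whose groups overlapped, Ttn and Myh1. They are RefSeq sequences of GRCm38.p6, 5′ to 3′, ending at or before the annotated start and leaving out any GENCODE exon. For Mylpf the stretch lies inside the gene as bounded by GENCODE (chr7:127208890-127214298), so the start used differs from the GENCODE one. Capitals mark the E-box CANNTG, which myogenic factors and other bHLH proteins can bind. The Mylpf stretch is on the plus strand at chr7:127211358-127211607, Actn2 on the minus strand at chr13:12340761-12340982, Ttn on the minus strand at chr2:76982548-76982797 and Myh1 on the plus strand at chr11:67199852-67200051.
Mylpf: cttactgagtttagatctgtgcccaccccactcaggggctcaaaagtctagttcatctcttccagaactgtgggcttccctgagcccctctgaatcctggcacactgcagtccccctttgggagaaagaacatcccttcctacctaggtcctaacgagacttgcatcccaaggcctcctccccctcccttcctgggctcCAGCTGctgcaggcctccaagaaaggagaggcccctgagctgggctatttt
Actn2: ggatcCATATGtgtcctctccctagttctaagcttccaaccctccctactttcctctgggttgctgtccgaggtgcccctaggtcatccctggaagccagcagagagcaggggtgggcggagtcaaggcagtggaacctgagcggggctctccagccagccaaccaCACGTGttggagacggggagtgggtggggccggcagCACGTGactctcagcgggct
Ttn: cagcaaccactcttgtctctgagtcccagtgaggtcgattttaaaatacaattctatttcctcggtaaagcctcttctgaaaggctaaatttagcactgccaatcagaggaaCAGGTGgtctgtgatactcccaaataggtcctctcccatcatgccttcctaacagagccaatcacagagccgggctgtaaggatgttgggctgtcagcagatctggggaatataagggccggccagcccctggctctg
Myh1: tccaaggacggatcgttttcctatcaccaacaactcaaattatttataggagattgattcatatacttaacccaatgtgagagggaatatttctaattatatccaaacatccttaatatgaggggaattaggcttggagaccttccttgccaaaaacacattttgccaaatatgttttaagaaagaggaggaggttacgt
The printed stretches hold 1 E-box for Mylpf, 3 for Actn2, 1 for Ttn and 0 for Myh1.

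Promoters were found for 29 of the 41 genes, 13 of them lower and 16 not called. In the 250 bases before the start, on either strand, an E-box was in 11 of the 13 and 13 of the 16, and in 69.3% of 27025 genes. The TEAD motif MCAT (CATTCC) was in 3 of 13 and 8 of 16, and in 14.4% of all genes. A loose MEF2-like pattern, CTANNNNTAG with any base at each N, was in 2 of 13 and 4 of 16, and in 3.7% of all genes. A glucocorticoid receptor half-site (AGAACA) was in 3 of 13 and 2 of 16, and in 18.2% of all genes. Matches of different motifs were counted separately even where they shared bases, and a match describes letters only.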

How the data were processed

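The tools named are featureCounts 2.0.1 and limma 3.50.1, and the build mm10, per the submitters' processing notes. No aligner and no gene filter is named in those sources. The authors deposited log2 CPM per mouse with their own log2 fold changes, p-values and limma scores (moderated t and log odds; unused here), in a table normalised without the excluded saline mouse (14911 genes, used here) and 1 with it (14970 genes; its column for that mouse, the 1 column not used, was left out). The deposited log2 values equal whole reads plus 0.5 over an effective library size (100% within 0.01 of a whole read); its ratio to the library total ranged from 0.876 (saline library 1) to 1.10 (dexamethasone library 2).

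Groups and mouse numbers came from the labels, with 1 library per mouse (4 saline, 9 dexamethasone). All genes were fitted with limma 3.58.1 in R 4.3.3 (two-sided, variance moderated along an abundance trend), with Benjamini-Hochberg adjustment over 14911 genes. Ratios and shares were compared by two-sided exact permutation (scipy 1.17.1). Exonic lengths and coordinates are from GENCODE M21 (GRCm38, the same build as mm10). The fit was tested on simulated data. The members, lists, pairs and tests were chosen with earlier results of these data known. All members were named, with the 3 genes of smallest adjusted p from each muscle gene list, among those whose average log2 CPM was 0 or more; marker lists for which only counts are given are those of fibroblasts, satellite cells, endothelium, lymphocytes, macrophages and neutrophils. A gene of the regulator list is not reported here by name. Figures were drawn with matplotlib 3.10.9.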

Additional observations from a re-analysis of the deposited data

Results flagged for a closer look

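Over 110 groups of 4 or 9 libraries (each gene, ratio and share in each treatment), 6 held a library set apart from the nearest of the others by more than Dixon's critical value, where chance gives about 1 in 20. Dexamethasone library 2 was low for Myh4 (14.20 log2 CPM, next 14.63) and Mybpc2 (11.21, next 11.57). Saline library 5 was low for Actn2 (10.53 log2 CPM, next 10.71), and dexamethasone library 4 was high for Lmod2 (7.81, next 7.55). Saline library 3 stood apart in the myosin shares, with Myh2 at 3.72% (next 2.93%) and Myh4 at 84.0% (next 87.1%).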

How the results depend on the processing

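The count of called genes over the whole table ran from 5959 (replicate block) to 7257 over all alternatives, and that of lower members from 13 to 22. Leaving out 1 library at a time gave 13 to 21 lower members, 5 to 10 lower fast genes and 2 to 4 lower slow genes. Members called higher were 2 under quantile normalisation and 1 per summed read without further scaling, a setting added after seeing the data, and 0 otherwise. Quantile normalisation gives the top gene the same value in every library by construction, and Actn3 changed sign there, to 0.38. The log2 ratio of Tnnt3 to Tnnt1 then passed, with a difference of 0.44. When 1 library was left out, the difference ran from -1.04 to -0.75 for Tpm1 to Tpm3, from 0.62 to 0.81 for Actn3 to Actn2, and from -4.72 to -3.53 points for the Myh4 share. The lost calls of these 3 came without saline library 1, 2 or 5, which leaves 3 saline libraries, whose smallest exact permutation p is 0.0091. Actn3 to Actn2 stayed separate between groups in each of these settings, so its p was at that smallest value. Its adjusted p of 0.0909 over the 10 pairs therefore cannot be read as a smaller difference. Leaving out saline library 3 also leaves 3 and lost none of these calls, Tpm1 to Tpm3 being separate between groups there too. Without saline library 3 and dexamethasone library 4 together the difference was -1.03 for Tpm1 to Tpm3 and 0.60 for Actn3 to Actn2 (exact permutation, adjusted p 0.0606 for each). With a library out of each group the smallest possible p is above that 0.0091, so a lost call there cannot be read as a smaller difference. Over single genes 946 values kept their side of the threshold and direction where called, 34 passed anew and 8 no longer passed. In 1, Actn3 under quantile normalisation, the sign changed together with a call. The 946 include sign changes of uncalled values, such as Acta1 and Ttn under quantile normalisation.

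Mouse numbers 1, 2, 3 and 5 occur in both groups. Deviations of same-numbered libraries were weakly correlated (-0.070 to 0.12), and were highest with the own number for 1 and 5 but not for 2 and 3. Such correlations cannot settle whether same-numbered mice share more than a number. With the number as a replicate block on those 8 libraries 22 members and 4 slow genes were lower, beside 2905 of all genes. Without the block, on the same 8, these counts were 20 and 4, beside 2970 of all genes. Over the same-numbered pairs the mean difference in log2 ratio was 0.63 for Actn3 to Actn2 and -0.98 for Tpm1 to Tpm3. These are given with no test, since an exact sign-flip test over 4 pairs cannot pass. The planned count models were not run because the deposited unit is log2 CPM; voom on recovered reads stood in. Depth did not limit these genes, as no member was at 0 reads.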
